A study of Mus musculus with 8 samples.

Results

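The 9 genes described here, Otx1, Otx2, Six3, Emx2, En1, En2, Gbx2, Nr2f1 and Nr2f2, encode transcription factors that divide the early brain along its anterior-posterior axis. They were taken by symbol from the 24849 genes listed for each sample, and 6 of the 9 (Otx2, En1, En2, Gbx2, Nr2f1 and Nr2f2) had a mean over 1 FPKM (sequenced fragments of a gene, scaled by transcript length and by library size) in at least 1 condition, as did 13214 of all genes. The set was selected on values of these same samples, and which value led to each gene is not stated, so the members' levels and differences are given as a description with no test. The question was which regional identity wild type (WT) and Pcgf5-/- cells take at day 6.

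PolyA+ RNA was sequenced from the MPI-II mouse embryonic stem cell (mESC) line, of strain 129S2/SvPas, undifferentiated (day 0) and 6 days into neural differentiation, giving 4 conditions of 2 samples. All cells of both genotypes were maintained on feeder cells with serum, LIF, CHIR99021 and PD0325901, and were then moved to N2B27, a serum-free medium that lets mESCs turn neural; day 0 is the state before that move. Pcgf5-/- cells were made with TALENs, nucleases designed to open a chosen DNA sequence, here in the second exon of Pcgf5, and grown from picked colonies after drug selection. Pcgf5 is a subunit of Polycomb repressive complex 1. The samples are described as independent biological samples. How many colonies the Pcgf5-/- samples came from is not given in the sources used here, so a difference between genotypes cannot be told apart from one between colonies.

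In the embryo, Otx2 marks the forebrain and midbrain and Gbx2 the anterior hindbrain, and the border where they repress each other places the isthmus, the signalling centre between midbrain and hindbrain. En1 and En2 mark the tissue on both sides of that border. Six3 and Emx2 act in the forebrain, Otx1 in forebrain and midbrain, and Nr2f1 and Nr2f2 (also called COUP-TFI and COUP-TFII) are graded nuclear receptors expressed in caudal forebrain, hindbrain and many other embryonic tissues. Otx2 and Gbx2 are also made before any brain exists: Otx2 in the primed epiblast, and Gbx2 in naive mESCs, where it acts downstream of LIF.

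RefSeq (build GRCm38.p6) held promoter entries for 7 of the 9 members, and Otx1 and En2 had none. The 4 promoters below are shown because their genes make up most of the set's RNA and carry the difference between the genotypes, with Nr2f1 and Nr2f2 lower and Otx2 and Gbx2 higher in Pcgf5-/- cells at day 6. Each is the 250 bases before the most upstream start, on the minus strand, with CpG dinucleotides in capitals. They lie at chr13:78198874-78199123 for Nr2f1, chr7:70366747-70366996 for Nr2f2, chr14:48667645-48667894 for Otx2 and chr1:89931177-89931426 for Gbx2.
Nr2f1: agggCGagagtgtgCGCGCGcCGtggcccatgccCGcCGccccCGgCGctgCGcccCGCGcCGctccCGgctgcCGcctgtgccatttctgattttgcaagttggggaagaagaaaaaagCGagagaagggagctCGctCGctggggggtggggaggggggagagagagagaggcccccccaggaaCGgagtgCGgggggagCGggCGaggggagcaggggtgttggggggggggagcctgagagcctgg
Nr2f2: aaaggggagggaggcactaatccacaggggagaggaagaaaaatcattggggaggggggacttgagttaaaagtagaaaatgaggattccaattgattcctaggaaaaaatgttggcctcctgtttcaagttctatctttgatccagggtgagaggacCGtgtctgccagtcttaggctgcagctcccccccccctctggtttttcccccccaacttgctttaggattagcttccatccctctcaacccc
Otx2: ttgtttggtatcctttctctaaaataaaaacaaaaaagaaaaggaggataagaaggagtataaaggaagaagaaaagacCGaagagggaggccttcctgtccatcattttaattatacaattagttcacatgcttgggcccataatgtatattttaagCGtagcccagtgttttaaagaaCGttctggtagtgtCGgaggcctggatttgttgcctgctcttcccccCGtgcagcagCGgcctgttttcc
Gbx2: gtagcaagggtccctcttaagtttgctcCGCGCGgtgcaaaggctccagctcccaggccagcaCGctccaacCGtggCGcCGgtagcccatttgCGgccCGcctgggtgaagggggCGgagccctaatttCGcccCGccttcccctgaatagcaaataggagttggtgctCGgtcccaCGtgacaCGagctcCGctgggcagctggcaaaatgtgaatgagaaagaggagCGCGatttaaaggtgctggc
CpG-rich promoters are the ones at which Polycomb complexes are usually found in mESCs. The windows above hold 22 CpG for Nr2f1, 18 for Gbx2, 6 for Otx2 and 1 for Nr2f2, against a median of 6 over all 32851 entries. At these most upstream starts Nr2f1 and Nr2f2 differed widely in CpG. Of all entries, 14.8% held at least as many CpG as the Nr2f1 window above and 92.1% at least as many as that of Nr2f2. The choice of start matters: another listed start of Nr2f1 held 2 CpG, and the further starts of Otx2 held 8, 14 and 9. A link between CpG and the RNA differences was not tested. Over the 7 members with an entry, 5 were above the median of all entries, and Emx2 was richest with 24. Both strands were also searched for the homeodomain core TAATTA (in 4.84% of all entries), the Otx-type site TAATCC (6.25%) and the nuclear receptor half-site AGGTCA (14.0%). TAATTA was in the Otx2 window and TAATCC in the Nr2f2 window, and AGGTCA was in none of the 7.

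Pcgf5 itself, the targeted gene, was at 5.18 and 3.63 FPKM in WT and 1.28 and 1.84 in Pcgf5-/- cells at day 0, and at 9.16 and 5.06 in WT and 0.669 and 0.457 in Pcgf5-/- cells at day 6. It was lower in Pcgf5-/- cells by 2.33 (SE 0.28) on the log2(FPKM + 1) scale at day 6 (limma, adjusted p = 0.00421); the day 0 difference of -1.07 had an adjusted p of 0.105. Low FPKM values put the depth of the 8 samples between 0.768 and 1 of the deepest; the number of fragments is not in the tables. A pair of samples stood apart on marker lists. The second Pcgf5-/- sample of day 0 had a summed level of 18 feeder fibroblast genes of 980 FPKM, against 284 to 445 in the other 3 day 0 samples, and the first WT sample of day 6 had a summed level of 11 primitive endoderm genes of 321 FPKM, against 45.7 to 89.9 in the other 3 day 6 samples.

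The COUP-TF pair showed the widest gap between the genotypes. Nr2f1 (chr13:78328236-78338243, mm9) was at 0.386 and 0.326 FPKM in WT and at 0.372 and 0.584 in Pcgf5-/- cells at day 0. Its day 6 level was 26.5 and 38.0 FPKM in WT and 2.89 and 5.32 in Pcgf5-/- cells. The genotypes overlapped at day 0 and lay far apart at day 6, where the WT mean was 7.85 times the Pcgf5-/- mean in FPKM and the log2(FPKM + 1) difference (Pcgf5-/- minus WT) was -2.72 (SE 0.27). Nr2f1 was nevertheless higher at day 6 than at day 0 in Pcgf5-/- cells as well, by 1.75 on the log2 scale, against 4.59 in WT.

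Nr2f2 (chr7:77496836-77511632) had more RNA than Nr2f1 before differentiation, with 1.30 and 1.39 FPKM in WT and 0.978 and 1.44 in Pcgf5-/- cells. At day 6 it was at 24.7 and 38.4 FPKM in WT and at 8.39 and 11.0 in Pcgf5-/- cells. The samples again overlapped at day 0 and were apart at day 6, with a WT mean 3.25 times the Pcgf5-/- mean and a log2 difference of -1.58 (SE 0.25). The increase over 6 days was 3.77 in WT and 2.27 in Pcgf5-/- cells. In both genotypes Nr2f1 and Nr2f2 were higher in the second sample of day 6 than in the first.

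The balance within the pair also differed by sample. The FPKM ratio of Nr2f1 to Nr2f2 was 1.07 and 0.991 in WT at day 6, and 0.345 and 0.484 in Pcgf5-/- cells at day 6, near the day 0 values of 0.235 to 0.406. Each gene overlaps a listed non-coding gene, and whether the libraries kept strand is not given in the sources used here, so reads where they overlap cannot be told apart. These neighbours were low: A830082K12Rik, which overlaps Nr2f1, was at 2.74 and 3.99 FPKM in WT and 0.262 and 0.857 in Pcgf5-/- cells at day 6, and B130024G19Rik, which overlaps Nr2f2, stayed at or under 0.712 FPKM in every sample. They were lower in the Pcgf5-/- samples of day 6, as the receptor genes were.

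Otx2 and Gbx2 had the opposite order at day 6. Otx2 (chr14:49277352-49287319) was at 15.1 and 8.49 FPKM in WT and at 5.71 and 2.17 in Pcgf5-/- cells at day 0, and then at 11.9 and 7.03 in WT and at 31.9 and 20.1 in Pcgf5-/- cells at day 6. Both Pcgf5-/- samples were thus below both WT samples at day 0 and above them at day 6. The log2 difference was -1.42 at day 0 and 1.37 at day 6 (SE 0.42 each), and the day 6 mean was 2.75 times that of WT. Over the 6 days Otx2 differed by -0.28 in WT, with overlapping samples, and by 2.52 in Pcgf5-/- cells.

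Gbx2 (chr1:91824537-91827751) was uneven at day 0, with 1.37 and 9.64 FPKM in WT and 1.20 and 4.41 in Pcgf5-/- cells. The genotypes overlapped there, and in each of them the second sample was the higher. At day 6 Gbx2 was at 13.7 and 8.30 FPKM in WT and at 30.4 and 16.1 in Pcgf5-/- cells, so the samples lay apart. The day 6 log2 difference was 0.99 with an SE of 0.70, a wide error that takes in the day 0 spread. The FPKM ratio of Gbx2 to Otx2 at day 6 was 1.15 and 1.18 in WT and 0.952 and 0.801 in Pcgf5-/- cells; at day 0 it ran from 0.0910 to 2.04 and overlapped between genotypes.

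The Engrailed genes, which mark the isthmus territory, did not separate the genotypes at day 6. En2 (chr5:28492236-28498706) was at 2.89 and 2.79 FPKM in WT and 2.03 and 2.51 in Pcgf5-/- cells at day 0. Its day 6 level was 4.70 and 0.711 in WT and 3.73 and 1.17 in Pcgf5-/- cells, so the first sample of each genotype was high, the second low, and the log2 difference was 0.03 (SE 0.54). En1 (chr1:122499064-122504568) was at 0.619 and 0.523 FPKM in WT and 0.479 and 2.87 in Pcgf5-/- cells at day 0, and at 1.20 and 0.661 in WT and 1.41 and 0.711 in Pcgf5-/- cells at day 6. The day 6 samples overlapped, with a log2 difference of 0.08 (SE 0.41). The highest En1 value, 2.87, belongs to the day 0 sample with the highest feeder sum; the part of feeder cells in it was not tested.

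The 3 remaining forebrain factors were near the bottom of the range in every sample. Six3 (chr17:86020174-86025531), which specifies the most anterior forebrain and eye field, was listed at 0 in both WT samples of day 0 and at 0.0171 and 0.0179 FPKM in Pcgf5-/- cells. At day 6 it was at 0.252 and 0.249 in WT and 0.286 and 0.463 in Pcgf5-/- cells, so both Pcgf5-/- samples were above WT, with overlapping intervals from Cufflinks within each library. Emx2 (chr19:59533180-59539847), a factor of the dorsal forebrain, was at 0.644 and 0.553 FPKM in WT and 1.03 and 0.642 in Pcgf5-/- cells at day 6, and at 0.198 to 1.11 over the 4 day 0 samples. Its highest value was in the same day 0 sample as that of En1.

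Otx1 (chr11:21894767-21901654) was at 0.455 and 0.171 FPKM in WT and 0.407 and 0.733 in Pcgf5-/- cells at day 0. Its day 6 level was 0.118 and 0.286 in WT and 0.0841 and 0.153 in Pcgf5-/- cells, and the genotypes overlapped. Otx1 lies on chromosome 11, where the median log2 difference between genotypes over the tested genes was 0.48 at day 0 and 0.38 at day 6, against 0.11 and 0.02 over all tested genes. Chromosome 6 had a like median, 0.41 at day 0 and 0.37 at day 6. The part of this shift in the Otx1 values was not tested.

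**Figure D1:**
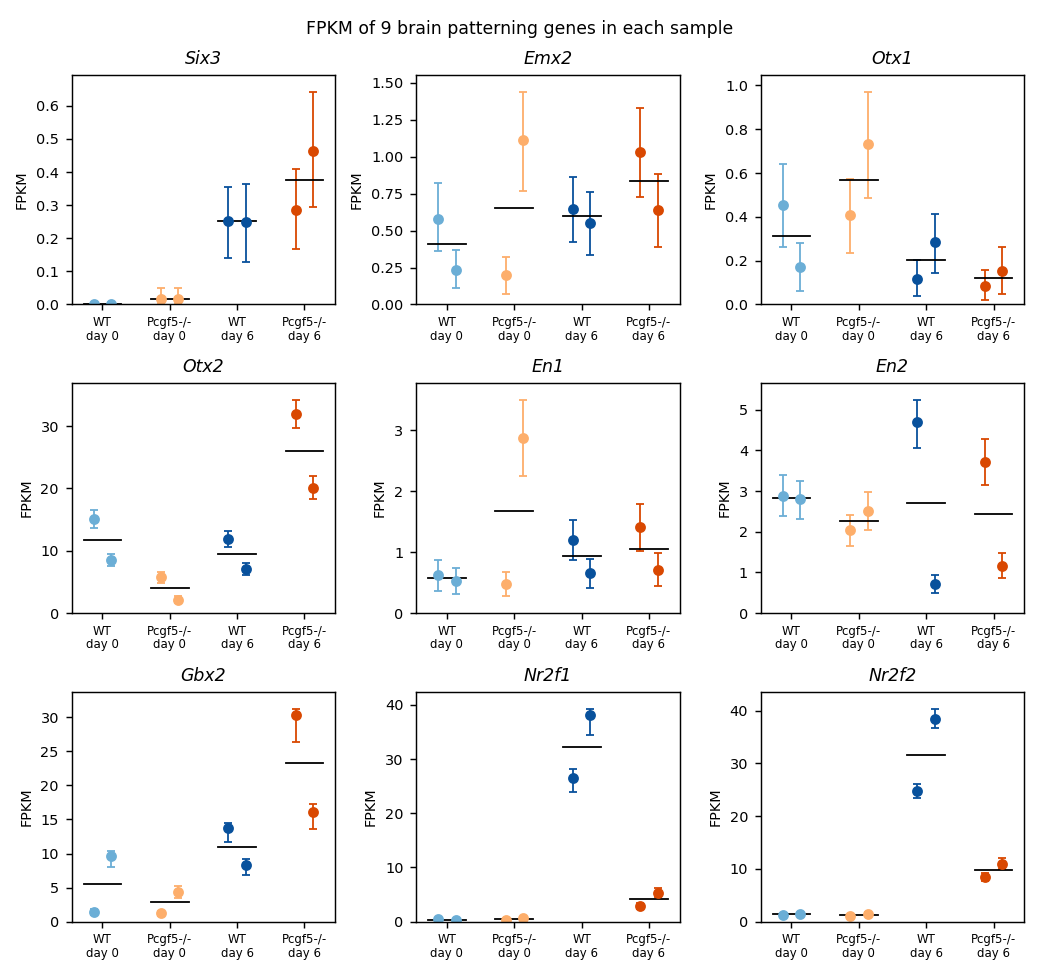
FPKM (linear axis, separate scale for each gene) of the 9 genes in the 8 samples; points are samples, bars the 95% interval that Cufflinks gave within that library, and black lines the mean of the 2 samples. At day 6 Nr2f1 and Nr2f2 lie lower, and Otx2 and Gbx2 higher, in both Pcgf5-/- samples than in both WT samples, while En1 and En2 overlap.

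Between samples of a condition the members often varied beyond what Cufflinks gave as counting error. Of 36 pairs of replicates (9 genes in 4 conditions), the 95% intervals lay apart in 17, for Otx2 and Gbx2 in all 4 conditions and for Nr2f1, Nr2f2 and En2 in both day 6 conditions. The interval within a library is therefore narrower than the spread between samples for these genes.

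Of the 9 members, 3 (Otx2, Gbx2 and Six3) had both Pcgf5-/- samples above both WT samples at day 6, 2 (Nr2f1 and Nr2f2) had them below, and 4 overlapped. Over all tested genes 62.2% lay apart at day 6 in either direction, and of the 6 members over the FPKM minimum 4 did. At day 0, Six3 was above, Otx2 and En2 were below and 6 overlapped; 47.9% of all tested genes lay apart. The median log2 difference of the 9 members was 0.08 at day 6 and 0.02 at day 0, against 0.02 and 0.11 over all tested genes, so the members did not share a direction.

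**Figure D2:**
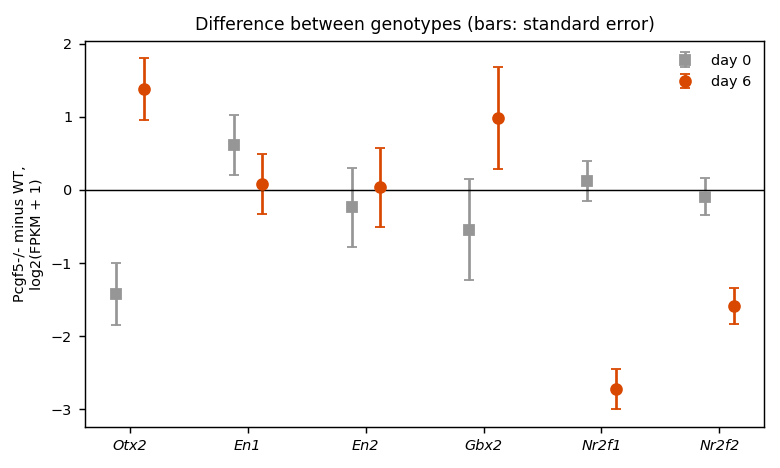
Difference between genotypes (Pcgf5-/- minus WT, on the log2(FPKM + 1) scale) of the 6 genes over the FPKM minimum, at day 0 (grey squares) and day 6 (orange circles), with the standard error of the fit as bars. Otx2 lies at -1.42 on day 0 and 1.37 on day 6, Nr2f1 at -2.72 and Nr2f2 at -1.58 on day 6, and En1 and En2 near 0 on day 6.

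Ordered by mean FPKM, which is scaled by transcript length, WT cells of day 6 had Nr2f1 (32.3 ± 8.17, SD, n = 2) and Nr2f2 (31.6 ± 9.64) first, which did not differ beyond their spread. Gbx2 (11.0 ± 3.82) and Otx2 (9.45 ± 3.43) followed, also within their spread between samples, though Gbx2 was the higher within both samples. En2 (2.71 ± 2.82) came next, and En1, Emx2, Six3 and Otx1 were under 1 FPKM. In Pcgf5-/- cells of day 6 the order began with Otx2 (26.0 ± 8.34) and Gbx2 (23.2 ± 10.1). These did not differ beyond their spread between samples, though Otx2 was the higher within both samples. Nr2f2 (9.70 ± 1.85), Nr2f1 (4.11 ± 1.72) and En2 (2.45 ± 1.81) followed, and the last 2 of these were within their spread.

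The genotypes of day 6 differed more in which members made up the RNA of the set than in its total. The summed FPKM of the 9 genes was 22.7 and 23.6 in WT and 11.4 and 15.9 in Pcgf5-/- cells at day 0, and 83.7 and 94.2 in WT and 80.1 and 55.7 in Pcgf5-/- cells at day 6. Nr2f1 and Nr2f2 together held 61.2% and 81.1% of that sum in WT at day 6, and 14.1% and 29.3% in Pcgf5-/- cells. Otx2 and Gbx2 together held 30.6% and 16.3% in WT and 77.8% and 65.1% in Pcgf5-/- cells at day 6. At day 0 their share was 41.5% to 76.9% over the 4 samples, and both WT samples of day 6 lay below that range.

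**Figure D3:**
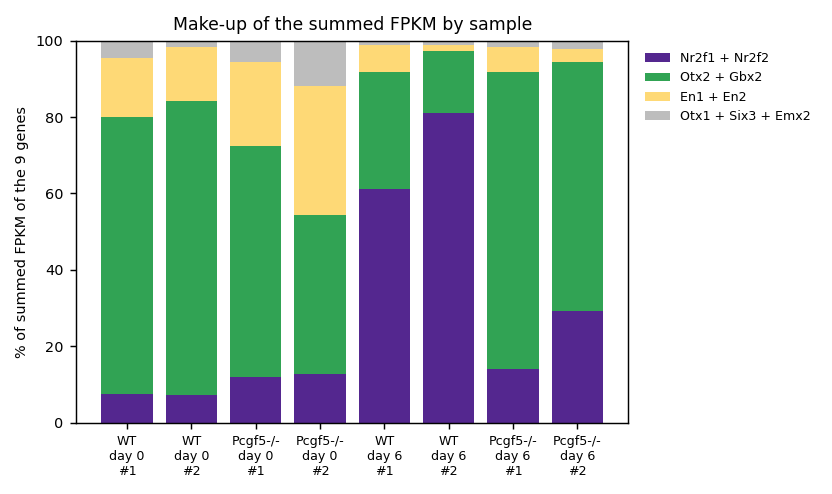
Share (%) of the summed FPKM of the 9 genes taken by 4 groups of members in each of the 8 samples; bars are stacked. Nr2f1 and Nr2f2 (purple) take 61.2% and 81.1% in the WT samples of day 6 and 14.1% and 29.3% in the Pcgf5-/- samples of day 6, where Otx2 and Gbx2 (green) take 77.8% and 65.1%.

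The place of these values on the axis was then read from 69 other regional markers in 4 textbook lists that leave out the 9 members. Of the 46 with enough RNA to be tested, 3 were called higher and 11 lower in Pcgf5-/- cells at day 6 (limma, Benjamini-Hochberg adjusted over all 13214 genes, threshold 0.05). Over all tested genes 9.57% were called higher and 7.05% lower. The lists were chosen with earlier results of these data known, so their counts beside these shares are a description. At day 0 limma called none of the 46, with 2 at an unadjusted p under 0.05, and 0.333% of all genes.

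The hindbrain list, made up of anterior Hox genes and their partners, was the one that was both most expressed and most often lower. All 15 of its tested genes (of 17) rose from day 0 to day 6 in WT and 11 rose in Pcgf5-/- cells, where 34.2% and 21.9% of all genes rose. Between genotypes at day 6, 8 of the 15 were lower and none higher (none higher at an unadjusted p under 0.05 either), and the median log2 difference was -1.23. Of the genes called lower, Hoxb3, Hoxd3 and Hoxd4 passed the FPKM minimum only through WT cells of day 6, where they were high. The minimum can therefore tilt this count and median towards lower values. With no FPKM minimum each of these genes was still called. Irx3, an Iroquois factor of the caudal neural tube, was at 53.6 and 69.6 FPKM in WT and 14.9 and 18.9 in Pcgf5-/- cells at day 6, a difference of -1.80 (SE 0.31, adjusted p = 0.0104).

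Hoxa2 and Hoxb2, which pattern the rhombomeres of the hindbrain, were lower as well. Hoxa2 was at 27.2 and 38.3 FPKM in WT and 15.0 and 15.2 in Pcgf5-/- cells (adjusted p = 0.0188), and Hoxb2 at 28.3 and 41.7 in WT and 8.82 and 16.2 in Pcgf5-/- cells (adjusted p = 0.0341). Hoxd3 differed by -1.80, Irx2 by -1.67, Hoxd4 by -1.41 and Hoxb3 by -1.23, all called, while Hoxa3 (-0.39) was not. At day 6 the mean of Hoxd3 was 4.11 FPKM in WT and 0.419 in Pcgf5-/- cells. For Hoxd4 it was 2.35 and 0.244, and for Hoxb3 3.59 and 0.914. Hoxd3, Hoxd4 and Hoxb3 were under 1 FPKM at day 0, so they passed the minimum only through the condition in which they were high. Hoxa3 falls outside the rule for named genes and was chosen after its values were seen. The Hoxa genes lie on chromosome 6 and the Hoxb genes on chromosome 11, the chromosomes with raised medians, so the lower Hoxa2, Hoxb2 and Hoxb3 ran against the shift of their chromosomes. Hoxd3 alone among the 14 regional genes called at day 6 kept its call under every alternative that tested it, and without the first Pcgf5-/- sample of day 6 only 2 of the 46 were still called lower.

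The midbrain and isthmus list moved in both directions. Of its 12 tested genes, 2 were higher and 2 lower at day 6, with a median of -0.22. Fgf17, an FGF of the isthmus, was at 1.24 and 0.847 FPKM in WT and 4.54 and 3.58 in Pcgf5-/- cells (adjusted p = 0.0327). It was already apart at day 0, at 1.99 and 0.487 FPKM in WT and 4.05 and 5.70 in Pcgf5-/- cells: the log2 difference was 1.46 at day 0 (adjusted p = 0.0816) and 1.31 at day 6, and limma's contrast between the days gave -0.15 (adjusted p = 0.869). Tal2, a factor of midbrain GABAergic neurons, was at 2.25 and 2.46 in WT and 7.67 and 3.91 in Pcgf5-/- cells (adjusted p = 0.0490). Pax3 and Pax7, dorsal neural tube factors that also run along the whole caudal axis and the neural crest, were lower. Pax3 was at 9.92 and 16.1 FPKM in WT and 1.06 and 1.69 in Pcgf5-/- cells (difference -2.54, adjusted p = 0.00377), and Pax7 at 6.98 and 7.76 in WT and 1.48 and 2.87 in Pcgf5-/- cells (adjusted p = 0.00886). With no FPKM minimum, or with 0.1 added to FPKM in place of 1, Fgf17 and Tal2 lost their calls, and Pax3 and Pax7 kept theirs. Tal2 also lost its call with a minimum of 5 FPKM, after quantile normalization and with only the compared groups fitted. With 0.01 added to FPKM, Fgf17, Tal2, Pax3 and Pax7 all lost their calls. With 1 sample left out the difference ran from 1.17 to 1.45 for Fgf17 and from 0.55 to 1.37 for Tal2. Fgf17, Tal2 and Pax7 did not keep their calls in all of those fits.

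Few forebrain genes were expressed in either genotype. Only 6 of the 18 passed the minimum, and 1 was higher and 1 lower at day 6. Pax6, a progenitor factor of forebrain that is also made in hindbrain and spinal cord, was at 60.3 and 65.9 FPKM in WT and 25.9 and 29.7 in Pcgf5-/- cells (difference -1.15, SE 0.21, adjusted p = 0.0114). It held most of the list: without Pax6 the summed level was 13.5 and 15.3 FPKM in WT and 8.89 and 11.9 in Pcgf5-/- cells. Lhx5 was at 6.24 and 1.87 FPKM in WT and 2.13 and 1.98 in Pcgf5-/- cells and was not called. Hesx1, which is made in the anterior neural plate and also in pluripotent cells, was at 0.378 and 0.605 FPKM in WT and 1.39 and 2.89 in Pcgf5-/- cells at day 6 (adjusted p = 0.0425), against 0.767 to 1.67 over the day 0 samples. The call of Hesx1 was lost with no FPKM minimum, after quantile normalization, with the replicate block and with only the compared groups fitted. That of Pax6 was kept in each of these. With 1 sample left out the difference ran from 0.69 to 1.39 for Hesx1 and from -1.25 to -1.06 for Pax6. Neither gene kept its call in all of those fits.

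Limma called no gene of the spinal cord and caudal progenitor list between the genotypes at day 6, of 13 tested, and none had an unadjusted p under 0.05. Hoxa5 was at 3.12 and 1.68 FPKM in WT and 3.73 and 1.67 in Pcgf5-/- cells, and Hoxb8 at 4.07 and 0.401 in WT and 1.51 and 0.904 in Pcgf5-/- cells. From day 0 to day 6, 2 of the 13 rose and 5 fell in each genotype, where 16.2% of all genes fell in WT and 10.4% in Pcgf5-/- cells. The feeder list fell too, with 11 of 18 genes lower at day 6 in each genotype; fibroblasts also express Hox genes of the trunk, and their part in the fall was not tested.

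**Figure D4:**
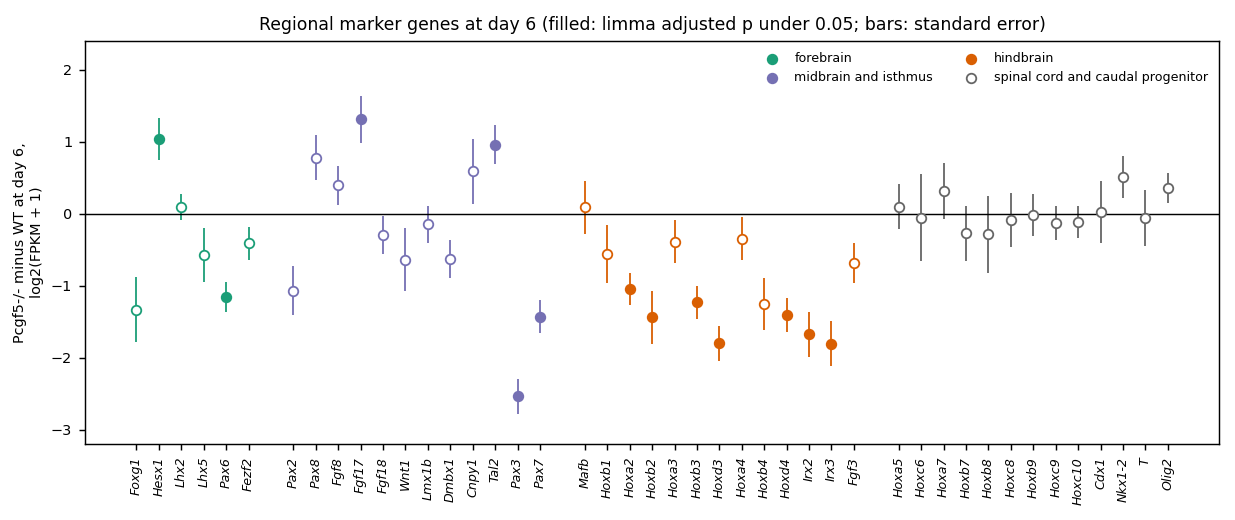
Difference between genotypes at day 6 (Pcgf5-/- minus WT, log2(FPKM + 1) scale, bars are standard errors) of 44 of the 46 tested genes of 4 regional lists, from forebrain at the left to spinal cord at the right. Filled points passed limma at an adjusted p under 0.05: 7 of the 13 hindbrain genes drawn, all below 0, 2 above and 2 below 0 in the midbrain and isthmus list, 1 each in the forebrain list and none of 13 in the caudal list.

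Read as summed levels, the hindbrain list was the highest of the 4 in every day 6 sample, with 192 and 243 FPKM in WT and 84.4 and 86.6 in Pcgf5-/- cells. The forebrain list was at 73.8 and 81.2 in WT and 34.8 and 41.6 in Pcgf5-/- cells, and the midbrain and isthmus list at 38.8 and 42.7 in WT and 30.2 and 23.4 in Pcgf5-/- cells. The midbrain and isthmus sum includes Pax3 and Pax7, which also run along the whole caudal axis. Pax3 was at 9.92 and 16.1 FPKM in WT and 1.06 and 1.69 in Pcgf5-/- cells. Pax7 was at 6.98 and 7.76 in WT and 1.48 and 2.87 in Pcgf5-/- cells. The gap between genotypes in this sum was no larger than the gap in Pax3 and Pax7 together. The caudal list was at 14.7 and 7.23 in WT and 12.2 and 7.98 in Pcgf5-/- cells. The ratio of the hindbrain to the forebrain sum was 2.60 and 2.99 in WT and 2.42 and 2.08 in Pcgf5-/- cells. With Pax6 alone taken out it was 14.2 and 15.9 in WT and 9.49 and 7.28 in Pcgf5-/- cells. That second ratio is one-sided, as the hindbrain sum kept its own largest gene in WT, Irx3. Irx3 was at 53.6 and 69.6 FPKM in WT and 14.9 and 18.9 in Pcgf5-/- cells. In each of the 4 samples the order was hindbrain, forebrain, midbrain and isthmus, then caudal, and the second place of the forebrain list rested on Pax6. Without Pax6 its sum was below the midbrain and isthmus list in all 4 samples, and below the caudal list in the first sample of each genotype.

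Neural and pluripotency markers also differed between the genotypes at day 6. Limma called 7.05% of all tested genes lower and 9.57% higher in Pcgf5-/- cells at that day. Of 14 neural progenitor and neuron genes, 12 were lower in Pcgf5-/- cells at day 6 and none higher (none at an unadjusted p under 0.05), and their summed level was 793 and 698 FPKM in WT and 313 and 302 in Pcgf5-/- cells. Tubb3, a neuronal tubulin, was at 210 and 149 FPKM in WT and 96.7 and 85.4 in Pcgf5-/- cells. Of 12 naive pluripotency genes, 11 were higher, with a summed level of 154 and 72.0 FPKM in WT and 503 and 467 in Pcgf5-/- cells, against 1281 to 1375 at day 0. Nanog, on chromosome 6, was at 43.0 and 22.2 FPKM in WT and 144 and 139 in Pcgf5-/- cells at day 6. In bulk RNA, fewer cells of a type and less RNA per cell cannot be told apart, and the part of undifferentiated cells in the Otx2, Gbx2 and COUP-TF values was not tested.

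Other cell type lists had fewer genes called. Of 6 primed pluripotency genes 2 were higher and 1, Sall2, lower, with sums of 152 and 97.3 FPKM in WT and 231 and 128 in Pcgf5-/- cells at day 6. Of 8 tested neural crest genes Erbb3 was higher and Ednrb, an endothelin receptor that is also made in neural progenitors, lower; Ednrb was at 48.5 and 58.0 FPKM in WT and 8.75 and 8.71 in Pcgf5-/- cells. Of 18 feeder genes Lox alone was called, lower. Limma called none of 9 primitive endoderm or 3 primitive streak genes, with 1 in each list at an unadjusted p under 0.05. All 9 primitive endoderm genes nevertheless had lower means in Pcgf5-/- cells at day 6, with a median log2 difference of -0.82. The first WT sample of day 6 had the high primitive endoderm sum given above. Feeder sums at day 6 were 93.5 and 244 FPKM in WT and 64.3 and 68.2 in Pcgf5-/- cells.

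For 5 of the regional genes the genotype difference at day 6 also differed from that at day 0, all towards lower values in Pcgf5-/- cells of day 6, where 3.09% of all genes passed the same limma contrast. They were Pax6, Pax3, Hoxd3, Irx2 and Irx3.

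Over the 8 samples, the 3 genes whose pattern was nearest to each member were found by the Euclidean distance of log2(FPKM + 1) after each gene was centred on its mean. They were Agtr1a (0.67), Hes3 (0.77) and Pantr1 (0.91) for Nr2f1, and Fam181a (0.39), Cxcr4 (0.50) and Fgfbp3 (0.54) for Nr2f2. For Otx2 they were Myb (1.17), Tbx4 (1.52) and Dhdh (1.53), and for Gbx2 Lefty1 (1.40), Tcfl5 (1.44) and Tmem229b (1.56). Emilin1 (0.53), Creb3l1 (0.59) and Pxdc1 (0.61) were nearest to En1, and Ptpn4 (0.73), Xrn1 (0.74) and Alkbh8 (0.81) to En2. Among the 6 members themselves Nr2f1 and Nr2f2 were nearest to each other (1.21), then En1 and En2 (1.60), while Otx2 and Gbx2 were 3.09 apart.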

How the data were processed

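RNA-seq reads were trimmed of adapters and of bases with a Phred score under 5, and reads under 19 bases, exact duplicate reads and reads rich in undetermined bases were removed by the authors. Per the submitters' processing notes, TopHat2 2.0.4, Cufflinks 2.1.1 and mouse build mm9 were used. The deposited values are FPKM per gene, already scaled for library size and transcript length by the authors, with the 95% interval Cufflinks gives within a library; they hold no fragment counts, and removing duplicates lowers the most abundant transcripts.

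The condition of each sample came from its label. Values were analysed as log2(FPKM + 1), a scale that understates changes of low genes, over the 13214 genes with a mean over 1 FPKM in at least 1 condition. All 8 samples entered a single limma 3.58.1 fit in R 4.3.3 (a mean per condition, variance trend), tested on simulated data, with Benjamini-Hochberg adjustment over all tested genes and a threshold of 0.05. The study names no test for single genes. The members and all lists were chosen with earlier results of these data known. Named genes are the 9 members, list genes called at day 6 (up to 8 per list and direction), the 2 highest of each list, and the 3 genes nearest to each member over the minimum; of the cell type genes that meet this rule some are printed, and some regional genes, though counted, are not reported here by name. Alternatives were pseudocounts of 0.1 and 0.01, no minimum or a minimum of 5 FPKM, quantile normalization, a replicate block, no trend, only the compared groups, and leaving out each sample. Summaries used pandas 2.3.3 and numpy 2.4.6 under Python 3.11.15. Promoters are RefSeq GRCm38.p6; gene positions are mm9 as in the tables.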

Additional observations from a re-analysis of the deposited data

Results flagged for a closer look

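For 5 regional genes the genotype difference (Pcgf5-/- minus WT, log2(FPKM + 1) scale) at day 6 differed from that at day 0 by limma's test of the difference itself, adjusted over all tested genes. The difference of the differences was -1.38 for Pax6 (adjusted p = 0.0491), -2.55 for Pax3 (adjusted p = 0.0243), -1.82 for Hoxd3 (adjusted p = 0.0384), -2.09 for Irx2 (adjusted p = 0.0485) and -2.16 for Irx3 (adjusted p = 0.0440). Over the fits that leave out 1 sample each, 0 to 5 regional genes passed this test; none did without the second WT sample of day 0, the second Pcgf5-/- sample of day 0 or either Pcgf5-/- sample of day 6, where 14 or 15 had an unadjusted p under 0.05.

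Otx2 differed by 2.8 between the days on the same scale: both Pcgf5-/- samples were below both WT samples at day 0 and above them at day 6. Otx2 is a member chosen with its values known, and the difference was not tested.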

How the results depend on the processing

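Each condition has 2 samples, and single libraries decided many counts. Over the fits that leave out 1 sample each, the genes called between genotypes ran from 297 to 1977 at day 6 (2197 with all samples) and from 1 to 22 at day 0 (44). Changes over time ran from 4702 to 6535 in WT and from 2367 to 4147 in Pcgf5-/- cells, while the genes whose genotype difference changed between days ran from 4 to 347 (408). Regional genes called at day 6 ran from 2 to 14 lower (11) and from 0 to 2 higher (3), and members lying apart from 5 to 9, as leaving out a sample makes overlap rarer. The day 6 count was 297 without the first and 921 without the second Pcgf5-/- sample of day 6, and 1173 and 502 without the first and second WT sample; without the first Pcgf5-/- sample 2 regional genes were lower. A lone sample was then taken to vary like the other conditions.

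The day 0 count was 102 with a minimum of 5 FPKM, 6 with no minimum, 2 without the trend, 3 after quantile normalization and 0 with only the compared groups fitted (2019 at an unadjusted p under 0.05). The difference between days gave 86 genes with no minimum, 251 with a pseudocount of 0.1 and 191 with 0.01. Regional genes called higher were 0 with a minimum of 5 FPKM or with none (1 and 3 at an unadjusted p under 0.05), and 1 with either smaller pseudocount, quantile normalization or only the compared groups. Those called lower were 7 and 3 with pseudocounts of 0.1 and 0.01. Quantile normalization moved the median of all tested genes from 0.11 to -0.01 at day 0 and from 0.22 to 0.00497 for time in WT, and the share called higher from 67.8% to 51.3% for WT over time and from 67.9% to 53.1% for Pcgf5-/- over time; the share at day 6 was 57.6%, and 69.6% with a pseudocount of 0.01. The causes were not tested. No result reversed among those with a call; En2, which has none, ran from -0.83 to 0.90 and En1 from -0.16 to 0.33 when 1 sample was left out, while Otx2 (1.03 to 1.72), Gbx2 (0.55 to 1.42), Nr2f1 (-3.07 to -2.37) and Nr2f2 (-1.89 to -1.28) kept their sign.

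With the replicate number as a block, 2410 genes were called at day 6, 1 at day 0 and 429 for the difference between days, and 12 regional genes were lower and 2 higher. The labels do not say that a number marks a shared batch. Replicate differences correlated at 0.387 between the genotypes at day 6, 0.102 at day 0 and -0.0765 to -0.0221 across days.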
